A study of Schmidtea mediterranea with 24 samples.

Results

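In adult planarians, 30 transcripts stood lower after silencing of *hox3a*, *lox5b* or *post2b* than in control animals, while staying nearer to control after silencing of *hox1*. They are 30 of the 22197 genes in the table and of the 14306 genes with a mean of at least 1 transcript per 1000000 transcripts (TPM, reads divided by transcript length and brought to the same sum in every library). They were chosen by their differences from control, d, which is the mean log2(TPM + 0.5) of the 4 libraries of an RNAi group minus that of the 4 control libraries. A member had d of at most -0.7 in *hox3a*, *lox5b* and *post2b* RNAi and d above -0.4 in *hox1* RNAi. Genes that the study had picked as downstream effectors were to be left out, but 0 of them had met the rule. The differences of these 4 RNAi groups from control are therefore given as a description, without tests.

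RNA sequencing measured polyadenylated RNA of whole asexual *Schmidtea mediterranea*, a freshwater flatworm. There were 6 groups of 4 libraries: control RNAi with double-stranded RNA (dsRNA) of *unc-22*, a gene of *Caenorhabditis elegans*, and RNAi of 1 of the 5 Hox genes *hox1*, *hox3a*, *lox5b*, *post2b* and *hox3b*. All 24 libraries came from adults of the clonal CIW4 strain that were fed purified dsRNA 7 times and starved for 5 days, and each library pooled 3 animals. Control animals therefore carried dsRNA feeding and starvation too. Pools of a single clonal strain are not genetically distinct individuals, and p-values reflect how far pools of 3 animals of this strain varied.

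Hox genes encode homeodomain transcription factors that assign position along the head-to-tail axis in animal embryos. Planarians keep expressing Hox genes as adults, in which tissue is renewed throughout life. Asexual planarians multiply by fission, in which the posterior end anchors to the substrate and is torn off, and each fragment regenerates the missing parts.

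The gene-specific parts of the primer pairs that bounded each silenced Hox fragment are shown because they define the 5 RNAi groups. They are written 5′ to 3′ in lower case, without the overhangs added for cloning, and no base is singled out with capitals.
hox1 forward: atttcaacaaacaagcattggtc
hox1 reverse: acaataaatgtttcgaccttggt
hox3a forward: ttacaggtggatgatagacacaa
hox3a reverse: tgacaccagaaaattgatagcag
hox3b forward: tagtccacacatcatgagaaaga
hox3b reverse: taggaaataaatgccggattgtc
lox5b forward: actcaaaatctgaatttgccgta
lox5b reverse: tgatttgcctttccgttaaagat
post2b forward: gtcaattaacgaattctccggat
post2b reverse: gatataactgaatcgctctgtcg
Because no table used here gives the gene IDs of the silenced Hox transcripts, their levels could not serve as a check of the labels.

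Reads recovered from the TPM steps came to between 5791520 and 9977218 per library, and the 3 shallowest libraries were *lox5b* libraries 2, 1 and 4, at 5791520, 5901783 and 7069672. Library 1 of *hox1* RNAi stood apart from the other 3 over the members. Its median member difference from the control mean was -0.040, against -0.44, -0.56 and -0.35 in libraries 2, 3 and 4. Of the 30 members, 23 had their highest *hox1* value in that library. The median of all genes with a mean TPM of at least 1 also lay below control, at -0.057 with *hox1* silenced, -0.14 with *hox3a*, -0.053 with *hox3b* and -0.15 with either *lox5b* or *post2b*. Rescaling every library by the median of ratios brought these medians to about 0 and left 5 of the 30 members within the rule.

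The members differed most from control in *lox5b* RNAi. Their median d was -1.24 there (range -2.498 to -0.77), -0.82 in *hox3a* RNAi (-1.28 to -0.70) and -0.83 in *post2b* RNAi (-3.45 to -0.71). In *hox1* RNAi it was -0.33, with a range of -0.40 to -0.13, and in *hox3b* RNAi, which the rule did not use, it was -0.68, with a range of -1.10 to -0.18. Among *hox3a*, *lox5b* and *post2b*, *lox5b* gave the lowest d for 23 members, *post2b* for 5 and *hox3a* for 2. In whole animals, fewer cells that contain a transcript and less of it per cell cannot be told apart.

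**Figure D1:**
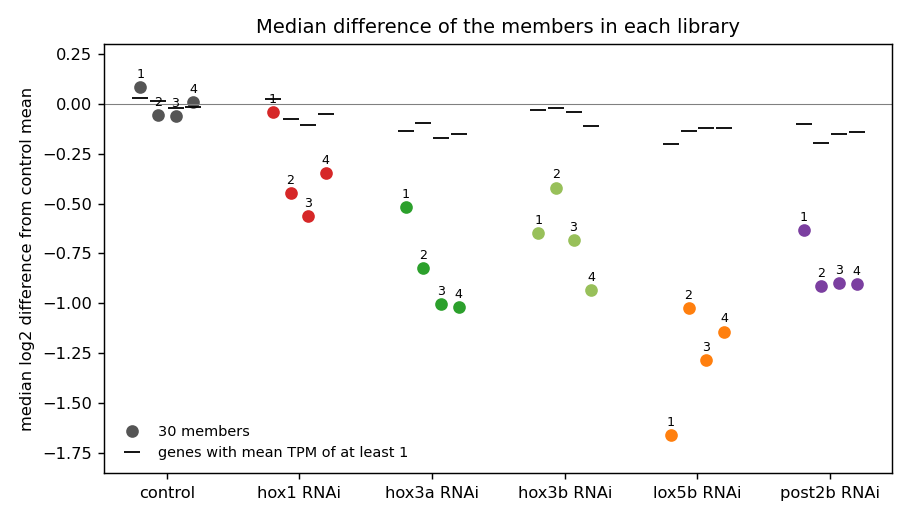
Each coloured point is the median log2 difference from the control mean over the 30 members in 1 library, labelled with its replicate number, and each black bar is the median over the 14306 genes with a mean TPM of at least 1. The lox5b libraries lie lowest, from -1.66 to -1.02, and hox1 library 1 lies at -0.040, among the controls.

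Libraries of the same group differed over the members. The median member difference was -0.52 in library 1 of *hox3a* RNAi and between -1.02 and -0.82 in the other 3. In *post2b* RNAi it was -0.63 in library 1 and -0.90 or -0.91 in the others. The *lox5b* libraries ranged from -1.66 to -1.02 and the *hox3b* libraries from -0.93 to -0.42, so that *hox3b* libraries overlapped those of *hox3a* and *post2b* RNAi but not those of *lox5b* RNAi.

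All 4 libraries of an RNAi group lay below all 4 control libraries for 1 member in *hox1* RNAi, where 9.34% of all tested genes did so. The count was 26 members for *hox3a* (background 24.7%), 29 members for *lox5b* (32.6%) and 28 members for *post2b* (26.9%). These 4 counts follow from the rule and nothing is read from them. In *hox3b* RNAi, whose libraries the rule did not use, 20 of the 30 members lay wholly below control, against 11.6% of all tested genes. The control libraries are shared with the rule, so a member with high control values would also look lower in *hox3b* RNAi.

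The member that alone had all *hox1* libraries below control was SMESG000059835.1. It had 14.01, 13.3, 14.6 and 13.98 TPM in control and 12.5, 9.86, 8.54 and 11.9 TPM in *hox1* RNAi. Its spread between *hox3a*, *lox5b* and *post2b* was among the 3 smallest, with d of -0.75, -0.93 and -0.87.

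**Figure D2:**
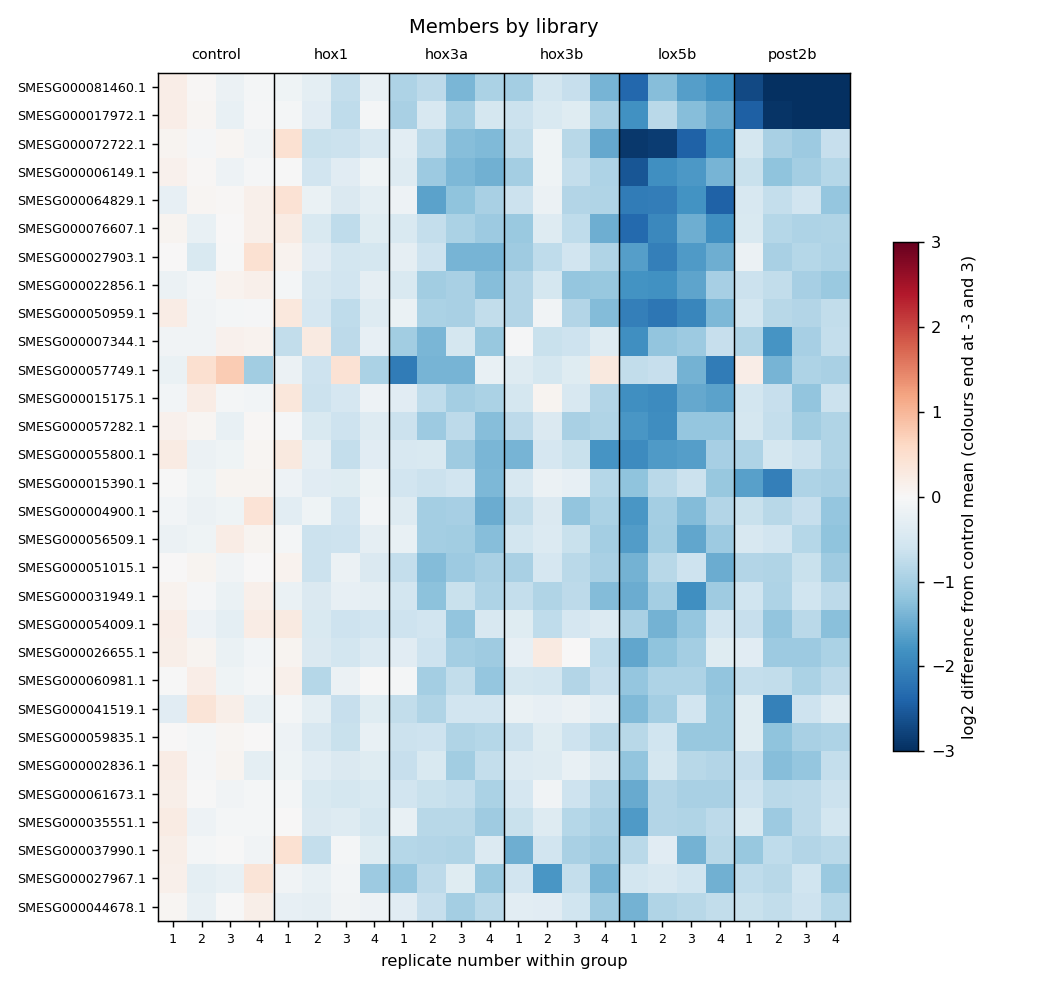
Log2 difference of each member (row, ordered by the mean d over hox3a, lox5b and post2b RNAi) from the control mean in each of the 24 libraries (columns). Blue is lower and red is higher than control. The top 2 rows reach their lowest values in post2b RNAi and most other rows in lox5b RNAi.

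The limit in *hox1* RNAi, d above -0.4, cut through a continuous range. Of 135 genes with d of at most -0.7 in *hox3a*, *lox5b* and *post2b* RNAi, 105 had d of -0.40 or lower in *hox1* RNAi, 40 of them at most -0.7, and 30 were the members. Just inside the limit lay SMESG000056509.1, SMESG000059835.1 and SMESG000057282.1, at d of -0.399, -0.386 and -0.380. Just outside lay SMESG000066360.1, SMESG000033386.1 and SMESG000070985.1, at d of -0.402, -0.407 and -0.409. Membership depended on single *hox1* libraries. Without *hox1* library 1 the median *hox1* d of the members was -0.43, 18 of the 30 members lay at or below the limit, and the rule found 12 genes, all of them members. Without *hox1* library 3 it found 48 genes, 28 of them members.

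**Figure D3:**
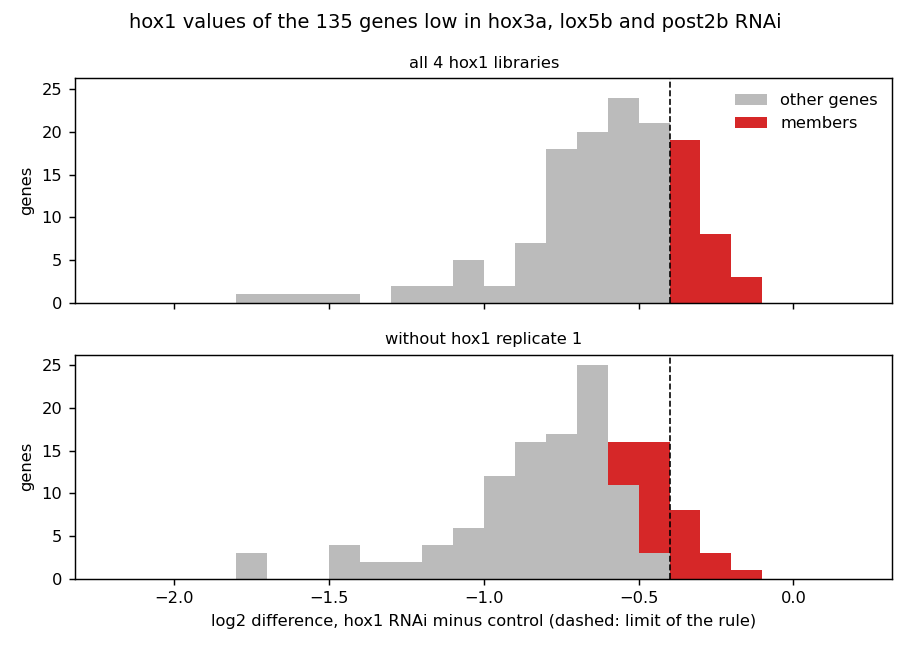
Histograms of d in hox1 RNAi for the 135 genes with d of at most -0.7 in hox3a, lox5b and post2b RNAi, with members in red and the other 105 genes in grey. With all 4 hox1 libraries the members end the distribution above -0.4 (dashed), and without hox1 library 1 the limit would leave 12 of them.

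At the -0.7 threshold the nearest members were SMESG000041519.1, SMESG000061673.1 and SMESG000044678.1. The d nearest to the threshold was -0.703 (*hox3a*), -0.710 (*post2b*) and -0.710 (*hox3a*), in that order. The nearest genes outside, SMESG000081649.1, SMESG000019984.1 and SMESG000017804.1, reached -0.699 in *hox3a*, -0.693 in *post2b* and -0.687 in *post2b*. The latter pair was far more abundant than any member, at 420 and 391 TPM in control.

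Compared with the 105 genes at or below the *hox1* limit, the members had a median d nearer to control in every group. Over those 105 genes the median d was -0.91 for *hox3a*, -1.496 for *lox5b* and -0.86 for *post2b*, and -0.63 for *hox1* and -0.70 for *hox3b*. These medians are a description, since the rule separated both lists by *hox1*.

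The members were mostly scarce transcripts. Their control mean had a median of 8.54 TPM (range 1.73 to 89.7), against 18.8 TPM for all genes with a mean TPM of at least 1. The control libraries of a member varied with a median coefficient of variation of 11.6%, against 8.42% for those genes. Recovered reads per library had a median of 107 over the members in control and 27 in *lox5b* RNAi. In 9 members at least 1 library held under 10 reads, and 2 members, SMESG000081460.1 and SMESG000017972.1, had at least 100 reads in every library.

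The names available here say little about what these transcripts do. Only SMESG000002836.1 had a product name in the part of the annotation used here, "Protein sel-1-like 3", and its role in planarians is not known from it. The family is named after sel-1 of *Caenorhabditis elegans*, whose human counterpart helps to remove misfolded proteins from the endoplasmic reticulum. That part held a gene ID for only 1 of the 30 members and named 469 of the 14306 genes. A transcript without a name here may be named elsewhere. Only the named member could fall in any of 10 lists built from product names, and it fell in none: Mx GTPases, TNF receptor-associated factors, channels and receptors, membrane transport, proteases, ubiquitin, kinases and phosphatases, cilium and cytoskeleton, transcription, and retrotransposon. Nothing about the other members is read from this. The lists held from 4 (retrotransposon) to 35 (channels and receptors) genes with a mean TPM of at least 1. Of the other 105 genes low in the same 3 groups, the lists held 1 gene of channels and receptors and 1 of proteases.

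The sel-1-like transcript was evenly low in the 3 groups. Control libraries held 5.18, 4.26, 4.61 and 3.48 TPM, *hox3a* libraries 2.51, 3.04, 1.85 and 2.47 TPM, *lox5b* libraries 1.62, 2.86, 2.22 and 2.14 TPM and *post2b* libraries 2.51, 1.505, 1.66 and 2.44 TPM. No library of those 3 groups reached the lowest control library, and their d values were -0.72, -0.86 and -0.96. Levels in *hox1* RNAi were 3.95, 3.40, 3.11 and 3.24 TPM and in *hox3b* RNAi 3.12, 3.20, 3.62 and 3.10 TPM, each overlapping control. The limma difference between *hox3b* and control RNAi was -0.37 (95% interval -0.70 to -0.037, adjusted p = 0.161), which did not pass the threshold.

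The most abundant members, SMESG000081460.1 and SMESG000017972.1, had their lowest levels in *post2b* RNAi, as did 2 other members, SMESG000015390.1 and SMESG000002836.1. Outside the members, SMESG000081459.1, chosen after its values were seen, had d of -0.87 in *hox3a*, -1.71 in *lox5b* and -2.86 in *post2b* RNAi, and was left out by its *hox1* d of -0.54. For SMESG000081460.1 the control libraries held 103, 90.8, 79.1 and 85.6 TPM and the *hox1* libraries 82.1, 72.3, 53.9 and 75.98 TPM. It had 47.01, 51.6, 34.3 and 45.8 TPM with *hox3a*, 17.01, 36.4, 27.98 and 24.9 TPM with *lox5b* and 13.3, 8.98, 5.94 and 4.94 TPM with *post2b* silenced. The *hox3b* libraries held 44.02, 60.5, 55.2 and 33.9 TPM. The means stepped down from 89.7 ± 10.3 TPM in control to 71.1 ± 12.1 with *hox1*, 48.4 ± 11.9 with *hox3b*, 44.7 ± 7.34 with *hox3a*, 26.6 ± 8.003 with *lox5b* and 8.30 ± 3.76 TPM with *post2b* silenced (mean ± SD, n = 4). The control and *hox1* libraries overlapped, as did *hox3a* and *hox3b*, whereas every *post2b* library lay below every library of the other 5 groups.

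For SMESG000017972.1 the control libraries held 77.03, 69.3, 56.9 and 64.7 TPM and the *hox1* libraries 63.9, 52.6, 38.8 and 64.2 TPM. It had 33.9, 47.5, 32.7 and 46.2 TPM with *hox3a*, 18.6, 37.99, 27.3 and 23.03 TPM with *lox5b* and 11.9, 8.25, 5.65 and 4.87 TPM with *post2b* silenced. The 4 *post2b* libraries ranked in the same order for both transcripts and lay below all other libraries. The 2 transcripts had a Pearson's r of 0.99 over the 24 libraries and 0.97 without the *post2b* libraries. Whether they are 2 separate observations was not tested. The *hox3a* and *lox5b* libraries of SMESG000017972.1 overlapped, library 2 of *lox5b* RNAi being higher than libraries 1 and 3 of *hox3a* RNAi.

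On the log2 scale SMESG000081460.1 was higher by 2.44 in *hox3a* than in *post2b* RNAi and by 1.67 in *lox5b* than in *post2b* RNAi. For SMESG000017972.1 these differences were 2.37 and 1.77. The limma calls for both transcripts, given below, are a description, because the values of these 3 groups chose the members.

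**Figure D4:**
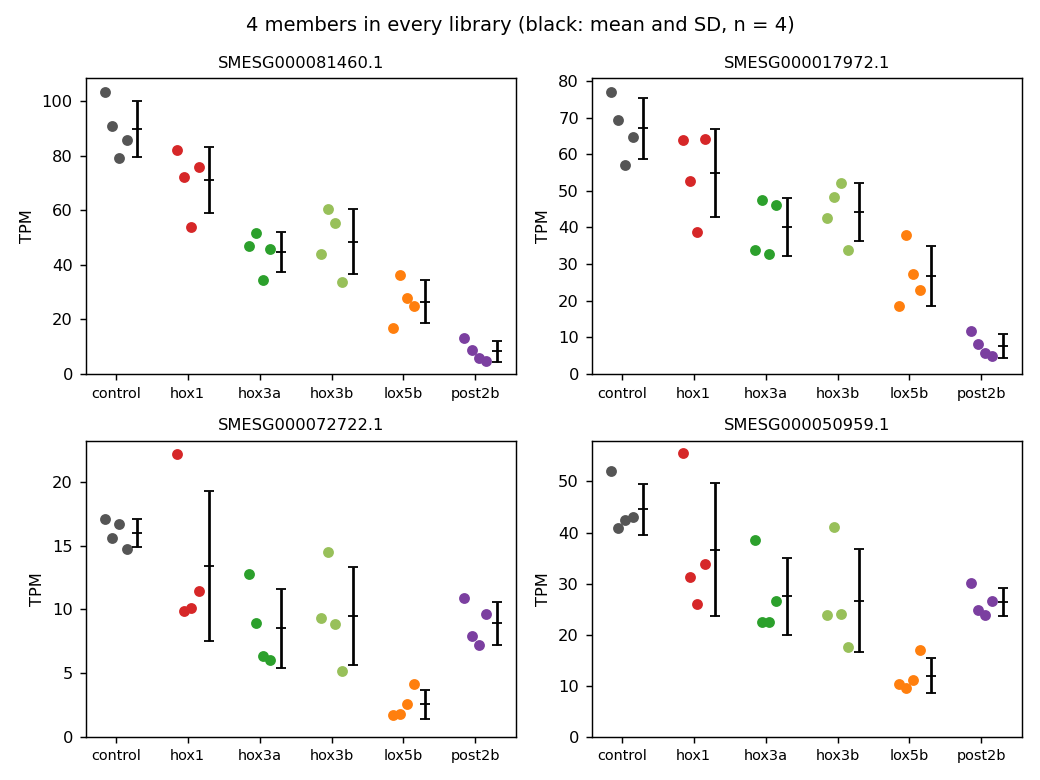
TPM in every library (coloured points) of 4 members named for their differences between hox3a, lox5b and post2b RNAi, with the mean and SD (black, n = 4) and each axis starting at 0. SMESG000081460.1 and SMESG000017972.1 are lowest in post2b RNAi, SMESG000072722.1 and SMESG000050959.1 in lox5b RNAi.

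Markers of anchor cells, epidermal cells of the marginal adhesive organ with which planarians hold on to a surface, moved with the *post2b* values. The summed level of 7 such markers (*ifb* and *lmnAC* among them) was 575 to 729 TPM in control, 556 to 686 with *hox1*, 531 to 817 with *hox3a*, 573 to 633 with *hox3b*, 433 to 549 with *lox5b* and 38.0 to 168 TPM with *post2b* silenced. All 7 lay wholly below control in *post2b* RNAi, 3 of 7 in *lox5b* RNAi and 0 in the other groups, and none was at 0. The study chose these markers as lowered in *post2b* RNAi of these libraries. Of the 30 members, SMESG000017972.1 and SMESG000081460.1 followed the marker sum most closely, with Pearson's r of 0.92 and 0.88 over the 24 libraries. Over the 20 libraries without *post2b* RNAi their r was 0.63 and 0.53, and other members came close, SMESG000041519.1 at 0.51 and SMESG000076607.1 at 0.47. These r are a description over libraries that share their RNAi groups. In *hox3a* and *hox3b* RNAi the marker sum overlapped control, and SMESG000017972.1 and SMESG000081460.1 lay wholly below control. Of 3 markers of a parenchymal population, all 3 lay below control in *post2b* RNAi, with d of -0.90 for *rcn-1*, -1.91 for *fer3l2* and -2.87 for *syt1*, and 1 in each of *hox3b* and *lox5b* RNAi. Their sum was 563 to 639 TPM in *post2b* RNAi against 1071 to 1246 TPM in control and was nearly all *rcn-1*, at a control mean of 1109 TPM. The study also saw *rcn-1* in parapharyngeal cells, where *post2b* RNAi did not affect it, so the sum does not follow a single population. A single marker of another parenchymal population held 1.15 to 2.38 TPM in *post2b* RNAi and 2.499 to 4.17 TPM in control. These parenchymal markers, too, were chosen by the study as lowered in *post2b* RNAi of these libraries. The part of these cell types in the members' levels was not tested.

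Most members were lowest in *lox5b* RNAi. The rule favoured that order, because differences from control were spread more widely in *lox5b* RNAi than in the other groups it used. Of all genes with a mean TPM of at least 1, 1406 had d of at most -0.7 in *lox5b* RNAi, against 323 in *hox3a* and 382 in *post2b* RNAi. The counts between these groups are therefore a description, and nothing is read from them or from the share over all genes.

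Between *hox3a* and *lox5b* RNAi, 10 of the 30 members were higher in *hox3a* RNAi by at least 1.5-fold with an adjusted p below 0.05 (limma with Benjamini-Hochberg adjustment over 15829 tested genes, background 3.91%). The count of members higher in *lox5b* RNAi was 0 (2.6%). At an unadjusted p under 0.05, 15 were higher in *hox3a* and 0 in *lox5b* RNAi, and limma voom on the recovered reads, an alternative added after seeing the data, gave 9 and 0. The count of 10 was 6 without *hox3a* library 1 and 6 without *lox5b* library 1. Between *lox5b* and *post2b* RNAi, 11 were lower in *lox5b* RNAi (4.11%) and 2 higher (1.83%), the 2 being SMESG000081460.1 and SMESG000017972.1. The median member difference was 0.34 between *hox3a* and *lox5b* RNAi and -0.36 between *lox5b* and *post2b* RNAi, against 0.012 and 0.0025 over all tested genes. The values of these groups chose the members, so these calls and medians are a description and no conclusion is drawn from them.

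Among the members lowest in *lox5b* RNAi, SMESG000072722.1 showed the widest gap. It had 17.04, 15.6, 16.7 and 14.7 TPM in control, 12.8, 8.94, 6.31 and 6.03 TPM with *hox3a*, 1.71, 1.79, 2.57 and 4.17 TPM with *lox5b* and 10.9, 7.87, 7.20 and 9.65 TPM with *post2b* silenced. All *lox5b* libraries lay below all *hox3a* and *post2b* libraries, which overlapped each other. The log2 difference was 1.57 between *hox3a* and *lox5b* RNAi and -1.67 between *lox5b* and *post2b* RNAi. In *hox1* RNAi the levels were 22.1, 9.84, 10.1 and 11.4 TPM, with library 1 above every control library and the other 3 below every control library.

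SMESG000050959.1, next in abundance after the pair above, had 52.01, 40.9, 42.4 and 43.00 TPM in control and 10.4, 9.54, 11.05 and 16.99 TPM in *lox5b* RNAi. It had 38.5, 22.6, 22.4 and 26.6 TPM in *hox3a* RNAi and 30.1, 24.8, 23.9 and 26.5 TPM in *post2b* RNAi. Its *lox5b* libraries did not overlap those of any other group. The log2 differences were 1.16 between *hox3a* and *lox5b* RNAi and -1.13 between *lox5b* and *post2b* RNAi. As in SMESG000072722.1, *hox1* library 1, at 55.6 TPM, lay above all controls, and the other *hox1* libraries, at 26.0 to 33.7 TPM, below them.

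SMESG000064829.1, SMESG000006149.1 and SMESG000076607.1 completed the 6 members with the lowest mean d over the 3 groups. SMESG000064829.1 was scarce, with 2.81, 3.61, 3.50 and 3.87 TPM in control, 2.32, 1.88, 2.12 and 1.26 TPM in *post2b* RNAi and 0.418, 0.437, 0.627 and 0.237 TPM in *lox5b* RNAi. The *lox5b* values rest on 3, 3, 6 and 2 recovered reads, 14 in all (exact Poisson 95% interval 7.65 to 23.5, counting error only). Its difference between *lox5b* and *post2b* RNAi was -1.36 on the log2 scale, with no overlap between the 4 libraries of either group.

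SMESG000006149.1 held 9.73, 9.13, 7.93 and 8.62 TPM in control, 1.09, 2.11, 2.33 and 3.03 TPM in *lox5b* RNAi and 5.35, 3.57, 4.11 and 4.67 TPM in *post2b* RNAi. The log2 difference between *lox5b* and *post2b* RNAi was -0.94. SMESG000076607.1 held 8.63, 6.87, 8.19 and 9.03 TPM in control, 1.22, 1.77, 2.64 and 1.90 TPM in *lox5b* RNAi and 5.83, 4.29, 4.02 and 4.13 TPM in *post2b* RNAi, with a log2 difference of -1.11. In both transcripts, all *lox5b* libraries were below all *post2b* libraries. The other *lox5b*-low members among these counts in both comparisons were SMESG000015175.1, SMESG000022856.1, SMESG000027903.1 and SMESG000055800.1, with log2 differences of -0.98 to -0.66 between *lox5b* and *post2b* RNAi. SMESG000031949.1 and SMESG000057282.1 were counted between *lox5b* and *post2b* RNAi and not between *hox3a* and *lox5b* RNAi.

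Between *hox3a* and *post2b* RNAi, whose values the rule also used, SMESG000081460.1 and SMESG000017972.1 were the 2 members past both thresholds and higher in *hox3a* RNAi (background 1.61%) and 0 were lower (0.537%, limma). At an unadjusted p under 0.05 the counts were 3 and 0, and limma voom gave 2 and 0. The median difference was -0.018 and 16 of the 30 members had the lower mean in *hox3a* RNAi. Nothing is read from these counts, which rest on values that chose the members.

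The members with the most even values were SMESG000027967.1, SMESG000037990.1 and SMESG000059835.1. The spread of d between the 3 groups was 0.097, 0.14 and 0.18. SMESG000027967.1 held 5.39, 3.81, 4.06 and 6.41 TPM in control, 1.87, 2.56, 3.62 and 1.95 TPM with *hox3a*, 3.16, 3.30, 3.01 and 1.46 TPM with *lox5b* and 2.65, 2.50, 2.99 and 1.94 TPM with *post2b* silenced. SMESG000037990.1 held 2.72, 2.22, 2.34 and 2.14 TPM in control, 1.08, 1.06, 1.03 and 1.65 TPM with *hox3a*, 1.12, 1.75, 0.559 and 1.11 TPM with *lox5b* and 0.802, 1.18, 1.04 and 1.12 TPM with *post2b* silenced. In both, the 3 RNAi groups overlapped one another and none of their libraries reached the lowest control library.

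SMESG000027967.1 and SMESG000037990.1 had a still lower d in *hox3b* RNAi, the group whose libraries the rule did not use. Their *hox3b* libraries overlapped those of *hox3a*, *lox5b* and *post2b* RNAi, against which *hox3b* RNAi was not tested. The comparison of *hox3b* with control RNAi asks whether transcripts chosen through other Hox genes also differed there. Of the 30 members, 13 fell in *hox3b* RNAi (background 1.11%) and 0 rose (0.246%), and at an unadjusted p under 0.05 the counts were 26 and 0 (limma), while limma voom called 16 and 0. All 30 differences were below 0, with a median of -0.68 against -0.055 over all tested genes. Members varied together between libraries, so these are not 30 separate outcomes. With group means removed, Pearson's r had a median of 0.31 over 435 pairs of members (range -0.61 to 0.94). The 4 control libraries also entered the rule, which favours members with high control values. The count depended on single libraries. It was 5 without control library 1 or 4, 6 without *hox3b* library 1, 8 without *hox3b* library 3 and 2 without *hox3b* library 4. Library 4 was the lowest *hox3b* library for 19 members, with a median member difference of -0.93.

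SMESG000027967.1 had the lowest *hox3b* value, with 3.08, 1.08, 2.75 and 1.55 TPM in *hox3b* RNAi and a limma difference from control of -1.10 (95% interval -1.65 to -0.55, adjusted p = 0.0216). SMESG000055800.1 held 14.4, 10.5, 10.99 and 12.6 TPM in control and 4.24, 8.34, 7.40 and 3.18 TPM in *hox3b* RNAi, a limma difference of -1.09 (95% interval -1.61 to -0.56, adjusted p = 0.0182). SMESG000037990.1 held 0.533, 1.40, 0.960 and 0.861 TPM in *hox3b* RNAi, a limma difference of -1.02 (95% interval -1.49 to -0.55, adjusted p = 0.0148). None of the *hox3b* libraries of these 3 members reached the lowest control library. These members were named for their low *hox3b* d, a choice that the intervals and adjusted p do not take into account. SMESG000037990.1 rests on few reads, 4, 12, 7 and 6 per *hox3b* library and 21, 17, 16 and 17 per control library. SMESG000027967.1 also rests on few, 15, 6, 13 and 7 per *hox3b* library and 27, 19, 18 and 33 per control library.

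At the other end, SMESG000057749.1, SMESG000041519.1 and SMESG000026655.1, also named for their *hox3b* d, were nearest to control in *hox3b* RNAi. Their limma differences were -0.24 (95% interval -1.12 to 0.63, adjusted p = 0.767), -0.23 (95% interval -0.76 to 0.30, adjusted p = 0.623) and -0.18 (95% interval -0.68 to 0.32, adjusted p = 0.693), and none passed. SMESG000026655.1 held 3.35, 3.09, 2.45 and 2.72 TPM in control and 2.37, 3.56, 2.93 and 1.49 TPM in *hox3b* RNAi, with libraries 1 and 4 below the control range, library 3 within it and library 2 above it. SMESG000041519.1 held 3.88, 6.74, 5.72 and 4.21 TPM in control and 4.29, 4.17, 4.42 and 3.96 TPM in *hox3b* RNAi, all within the control range.

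SMESG000057749.1 is a member by very few reads. Its recovered reads were 5, 9, 10 and 2 in control, 0, 1, 1 and 5 with *hox3a*, 2, 2, 1 and 0 with *lox5b* and 8, 1, 2 and 2 with *post2b* silenced. Over 4 libraries these sum to 26 in control (exact Poisson 95% interval 16.98 to 38.1, counting error only), 7 in *hox3a* (2.81 to 14.4), 5 in *lox5b* (1.62 to 11.7) and 13 in *post2b* RNAi (6.92 to 22.2). In none of the 3 groups did its libraries lie wholly below control, and the control and *post2b* intervals overlapped.

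**Figure D5:**
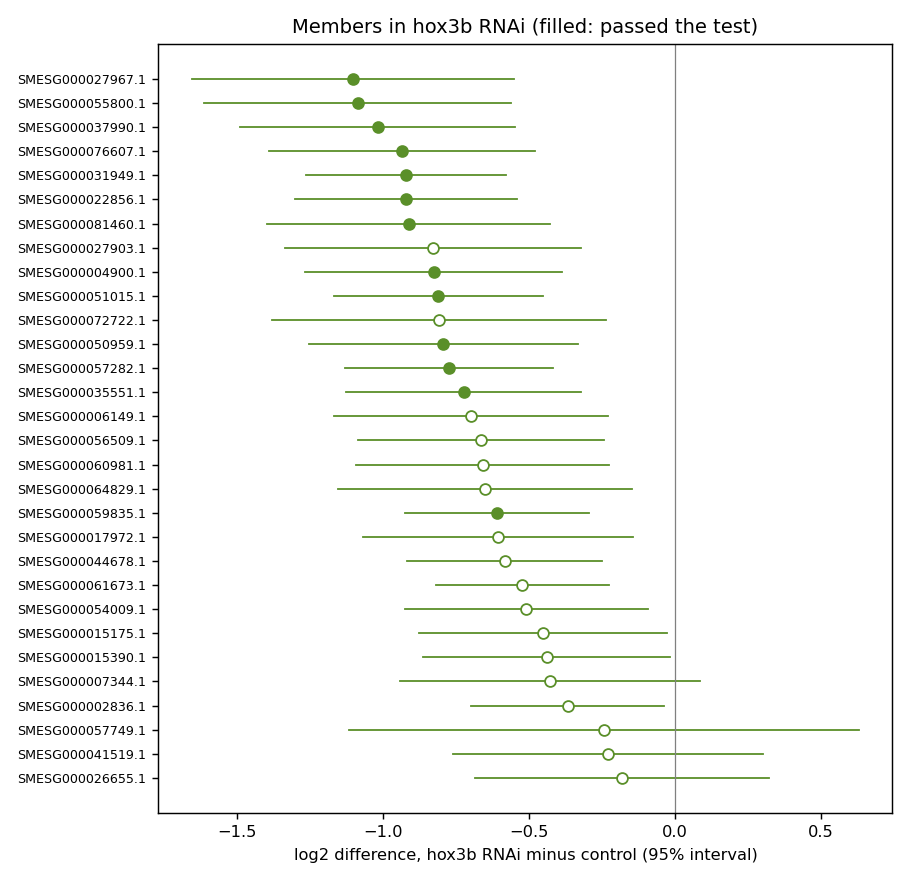
Log2 difference of each member between hox3b and control RNAi with its 95% interval (limma). Filled points are the 13 members past 1.5-fold with an adjusted p below 0.05. All 30 points lie below 0 and 26 of the intervals exclude 0.

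SMESG000051015.1 and SMESG000061673.1, which complete the 5 most abundant members, stood on either side of the fold cutoff. SMESG000051015.1 held 30.1, 31.9, 28.1 and 30.5 TPM in control and 15.2, 21.2, 17.1 and 15.02 TPM in *hox3b* RNAi, and fell by limma, -0.81 (95% interval -1.17 to -0.45, adjusted p = 0.0126), with no overlap. SMESG000061673.1 held 26.8, 23.3, 21.9 and 22.6 TPM in control and 16.5, 21.97, 15.2 and 12.6 TPM in *hox3b* RNAi. Its limma difference, -0.52 (95% interval -0.82 to -0.23, adjusted p = 0.0386), stayed under 1.5-fold, and *hox3b* library 2 lay within the control range. SMESG000044678.1 was also under 1.5-fold, at a limma difference of -0.58 (95% interval -0.92 to -0.25, adjusted p = 0.0412).

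Directly against *hox1* RNAi, 2 members were lower in *hox3b* RNAi (background 0.354%) and 0 higher (1.24%), SMESG000031949.1 and SMESG000037990.1. At an unadjusted p under 0.05 the counts were 13 and 0 (limma), limma voom called 3 and 0, and 27 of the 30 members had the lower mean in *hox3b* RNAi. The rule kept members whose *hox1* values were near control, which favours this direction, so these counts are a description and nothing is read from them. For SMESG000031949.1, chosen here after its values were seen, *hox1* RNAi held 9.66, 8.20, 9.32 and 9.24 TPM and *hox3b* RNAi 6.59, 5.78, 6.27 and 4.25 TPM, a log2 difference of -0.64. Its 4 *hox3b* libraries lay below its 4 *hox1* libraries. For SMESG000037990.1 the *hox1* libraries held 3.39, 1.24, 2.24 and 1.73 TPM and overlapped *hox3b* RNAi, with a log2 difference of -0.85. Neither call was left without *hox1* library 1, *hox1* library 4, *hox3b* library 3 or *hox3b* library 4, and the count was 1 without *hox1* library 2, *hox1* library 3 or *hox3b* library 1.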

How the data were processed

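The authors made stranded mRNA libraries, demultiplexed the reads with bcl2fastq 2.20, aligned them with STAR and deposited 1 table of TPM for 22197 genes and 24 libraries, whose columns sum to 1000000. The tool that made the TPM is not given in the sources used here. TPM were used as log2(TPM + 0.5). The members and lists were chosen with earlier results of these data known.

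Genes that reached a TPM of 0.5 in 4 or more libraries, 15829, were tested with limma 3.58.1 under R 4.3.3 (all 24 libraries in 1 model, eBayes with an intensity trend, two-sided, Benjamini-Hochberg), in 5 comparisons. A call needed 1.5-fold and an adjusted p under 0.05. The 3 comparisons among *hox3a*, *lox5b* and *post2b*, and *hox3b* against *hox1*, use values that chose the members and are given as descriptions. Steps were tested on simulated data. TPM of a gene are multiples of the value of 1 read, so whole reads were recovered from the steps for 99.5% of genes above 0 (within 0.001 read). Were all 24 values of a gene to share a factor, its reads would be understated. Intervals on reads cover counting error only.

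Named genes were the member with a product name, the 6 with the lowest mean d over *hox3a*, *lox5b* and *post2b*, the 5 most abundant in control, the 3 nearest to the -0.7 threshold on each side, the 3 lowest and 3 highest in *hox3b*, up to 2 per direction in each direct comparison, and the 3 with the smallest and the 3 with the largest spread. Genes nearest the *hox1* limit were added. Marker genes came from the study's list of effectors. Alternatives were pseudocounts of 0.1 and 1, other filters, thresholds and limits, rescaling by the median of ratios, no trend, only the groups compared, a replicate block and leaving out each library.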

Additional observations from a re-analysis of the deposited data

Results flagged for a closer look

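Of 186 sets of 4 libraries examined (30 members and their median in 6 groups), 13 had 1 library far from the other 3, where chance gives about 1 in 20. The median member difference was -0.63 in *post2b* library 1, against -0.90 in the nearest other *post2b* library. Post2b library 1 was also high for SMESG000026655.1 (2.19 TPM), SMESG000027903.1 (2.33 TPM) and SMESG000076607.1 (5.83 TPM). Hox1 library 1 was high for SMESG000054009.1 (9.88 TPM), SMESG000061673.1 (22.8 TPM) and SMESG000072722.1 (22.1 TPM). In the control group, library 4 was high for SMESG000004900.1 (9.30 TPM) and library 2 for SMESG000015175.1 (7.02 TPM). In *hox3a* RNAi, library 4 was low for SMESG000015390.1 (7.36 TPM) and high for SMESG000037990.1 (1.65 TPM). Library 4 of *lox5b* RNAi was low for SMESG000027967.1 (1.46 TPM), and library 4 of *hox3b* RNAi was high for SMESG000057749.1 (2.15 TPM).

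Between *hox3a*, *lox5b* and *post2b* RNAi, 25 member differences were past 1.5-fold with an adjusted p below 0.05 (limma). The rule chose the members on the values of these groups and favours *lox5b* as the lowest, so they are a description. Between *hox3a* and *lox5b* RNAi the log2 differences were 0.82 for SMESG000006149.1, 0.96 for SMESG000015175.1, 0.60 for SMESG000022856.1, 0.79 for SMESG000027903.1, 1.16 for SMESG000050959.1, 0.72 for SMESG000055800.1, 1.11 for SMESG000064829.1, 1.57 for SMESG000072722.1, 1.09 for SMESG000076607.1 and 0.77 for SMESG000081460.1. Between *hox3a* and *post2b* RNAi they were 2.37 for SMESG000017972.1 and 2.44 for SMESG000081460.1. Between *lox5b* and *post2b* RNAi they were -0.94 for SMESG000006149.1, -0.95 for SMESG000015175.1, 1.77 for SMESG000017972.1, -0.66 for SMESG000022856.1, -0.98 for SMESG000027903.1, -0.62 for SMESG000031949.1, -1.13 for SMESG000050959.1, -0.81 for SMESG000055800.1, -0.69 for SMESG000057282.1, -1.36 for SMESG000064829.1, -1.67 for SMESG000072722.1, -1.11 for SMESG000076607.1 and 1.67 for SMESG000081460.1.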

How the results depend on the processing

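The number of members, 30, was 17 with a pseudocount of 1, 8 after rescaling by the median of ratios, 82 at a threshold of -0.6, 7 at -0.8, 11 with a *hox1* limit of -0.3 and 51 with a limit of -0.5, and 12 to 48 leaving out 1 library. Of the 30, 5 were still found after rescaling and 15 with a pseudocount of 1. The 13 members called in *hox3b* against control RNAi were 20 with only the 2 groups in the model and 2 to 18 leaving out 1 library. The 2 called in *hox3b* against *hox1* RNAi were 0 with no filter on low values, 1 at a mean TPM of at least 2, 1 with only the 2 groups in the model, and 0 to 3 leaving out 1 library. The 10 called between *hox3a* and *lox5b* RNAi were 6 with only the 2 groups and 6 to 12 leaving out 1 library. The 2 called between *hox3a* and *post2b* RNAi ranged from 2 to 3 and the 13 between *lox5b* and *post2b* RNAi from 10 to 15 leaving out 1 library. Among 961 values of single members under alternatives, 108 lost the call, 21 gained it and 2 changed sign in *hox3b* against control RNAi, SMESG000057749.1 to 0.0087 without control library 3 and SMESG000026655.1 to 0.015 without *hox3b* library 4. Leaving out 1 library, these ranged from -0.59 to 0.0087 and from -0.33 to 0.015. Limma voom on the recovered reads, added after seeing the data, called 16, 3, 9, 2 and 13 members in the order of the comparisons above. The causes of these changes were not tested, except that leaving out a library also leaves fewer samples.

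In the 5 comparisons, the correlation of deviations from the group means between same-numbered libraries ranged from -0.25 to 0.28. The highest was library 1 of *hox3a* with library 1 of *post2b* RNAi. Pairs of *hox1* with *hox3a*, *lox5b* or *post2b* were not examined. Library 1 was the highest of its group for 23 members in *hox1*, 19 in *hox3a* and 23 in *post2b* RNAi. In *lox5b* RNAi it was the lowest for 16. A tie between same-numbered libraries was therefore not settled. With the replicate block the counts were 13, 1, 11, 2 and 13. Depth limits members under 10 reads per library, 9 of the 30.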
